A study of Homo sapiens with 6 samples.

Results

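The ATG4 proteases (ATG4A, ATG4B, ATG4C and ATG4D), the WIPI proteins (WIPI1 and WIPI2) and a set of early-acting autophagy genes (ULK1, ULK2, ATG9A and ATG16L1) were followed by gene symbol through an RNA-sequencing table of 60546 gene identifiers, and all 10 genes were found once. Per the labels, RNA came from HCT-116, an established human colon carcinoma line, carried as a pair of stable puromycin-selected lines. One line had been given the PMSCV vector with GOLPH3, a Golgi phosphoprotein (GOLPH3 group, 3 libraries), and the other the empty PMSCV vector (Vector group, 3 libraries). All 6 libraries carry the label wild type for genotype, and all cells grew in DMEM with serum. Each group was one stable line sampled at different generations, so p-values measure the spread between these samples and not between independently made lines. The titles number the GOLPH3 libraries 1, 2 and 3 as P8, P12 and P13, and the Vector libraries 1, 2 and 3 as P12, P11 and P13, and what the P number stands for is not explained there.

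Autophagy wraps cytoplasm in a double membrane that later fuses with lysosomes. The ULK kinases start the process, vesicles with the lipid scramblase ATG9A seed the membrane, and WIPI proteins bind phosphatidylinositol 3-phosphate on it. WIPI2 then recruits ATG16L1, the scaffold on which ATG8 proteins such as LC3 are joined to lipid. ATG4 proteases act before and after that step, trimming new ATG8 proteins so that they can be joined and cutting them off the membrane again.

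The libraries were checked against their labels before any result was drawn. GOLPH3 itself had 1630, 1272 and 1383 normalized reads in GOLPH3 libraries 1 to 3 and 1968, 1892 and 1472 in Vector libraries 1 to 3, so the transcript was not higher in the libraries labelled GOLPH3 (log2 fold change -0.31, limma adjusted p = 0.609). A normalized read is a read divided by the size factor of its library, and the recovered totals ran from 15708846 to 21900764 reads per library. Of 12 colon epithelial markers, KRT20 was at 0 in all libraries, and VIL1, LGALS4 and CDH17 were at most at 4, 5 and 9 reads. Limma called 3 of 11 tested (KRT18, KRT19 and ELF3) higher in the GOLPH3 libraries, and 10 of the 11 had positive log2 fold changes. CDX2 was the other, with means of 289 in the GOLPH3 and 499 in the Vector libraries, which overlapped. The 12 summed to 73077 to 143409 normalized reads in the GOLPH3 libraries and 33502 to 43474 in the Vector libraries. KRT8, KRT18 and KRT19 had the highest means. Of 14 mesenchymal markers, 12 were tested and 5 were called lower in the GOLPH3 libraries (summed level 1981 to 2144 against 4530 to 8658). Log2 fold changes were negative for 9 of the 12 and positive for 3. COL1A1 (mean 1143 in the GOLPH3 and 598 in the Vector libraries) and THY1 (6.83 and 1.65) were higher without overlap and were not called. For 11 genes known from HEK293, a human embryonic kidney line, the sums were 146 to 157 in the GOLPH3 and 6472 to 16511 in the Vector libraries. Lower in the GOLPH3 libraries were 9 of 10 tested, and 8 of 11, IRS4 and NEFL among them, were at 3 reads or fewer in every GOLPH3 library. INA, 1 of these 8, was that low in all 6 libraries. PAX2 was not lower (mean 126 in the GOLPH3 and 113 in the Vector libraries) and was the highest of this list in the GOLPH3 libraries. VIM, CDH2 and ZEB2 are in both this list and the mesenchymal list. Libraries also differed by base composition: the median log2 deviation of GC-rich minus GC-poor transcripts (quartiles at 56.4% and 41.8% GC) was -0.18, 0.45 and 1.17 in GOLPH3 libraries 1 to 3 and -0.43, -1.35 and 0.37 in Vector libraries 1 to 3. Whether the 6 libraries are of the line and construct on their labels is therefore in doubt, and GOLPH3 against Vector below means a comparison of libraries so labelled. The part of these marker and composition differences in the values that follow was not tested, except that each fold change was also computed after centring every library within 20 bins of transcript GC content, an adjustment chosen after that spread was seen and called GC-centred here.

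All 10 genes were well above the detection floor. The lowest recovered count was 119 reads, for ULK2, and 3 reads corresponded to at most 3.29 normalized reads. Per kilobase of exon, which allows levels of different genes to be set side by side, the highest mean in the GOLPH3 libraries was that of ATG4D (304 ± 74.7, SD, n = 3), followed by ATG4B (275 ± 56.4), ATG9A (213 ± 17.0), WIPI2 (182 ± 49.1), ATG16L1 (176 ± 30.5), ULK1 (161 ± 37.7), WIPI1 (127 ± 21.4), ATG4A (89.0 ± 12.5), ATG4C (72.1 ± 22.3) and ULK2 (20.5 ± 4.41). In the Vector libraries the order was ATG9A (217 ± 23.5), ATG4B (198 ± 54.5), ATG4C (181 ± 25.3), ATG4D (180 ± 80.8), WIPI2 (157 ± 31.7), ATG16L1 (139 ± 13.8), ULK1 (124 ± 54.2), ATG4A (119 ± 29.8), WIPI1 (60.2 ± 8.93) and ULK2 (15.4 ± 4.01). ULK2 was the lowest in both groups. These levels were not GC-centred, and length was that of all annotated exons of a gene. ATG4D (64.8% GC) and ATG4C (34.8% GC) held different places in the GOLPH3 and Vector orders. The part of base composition in these orders was not tested. The mean ± SD ranges of neighbours in each order overlapped, except between ULK2 and the gene above it and between WIPI1 and ATG4A, in both groups.

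**Figure D1:**
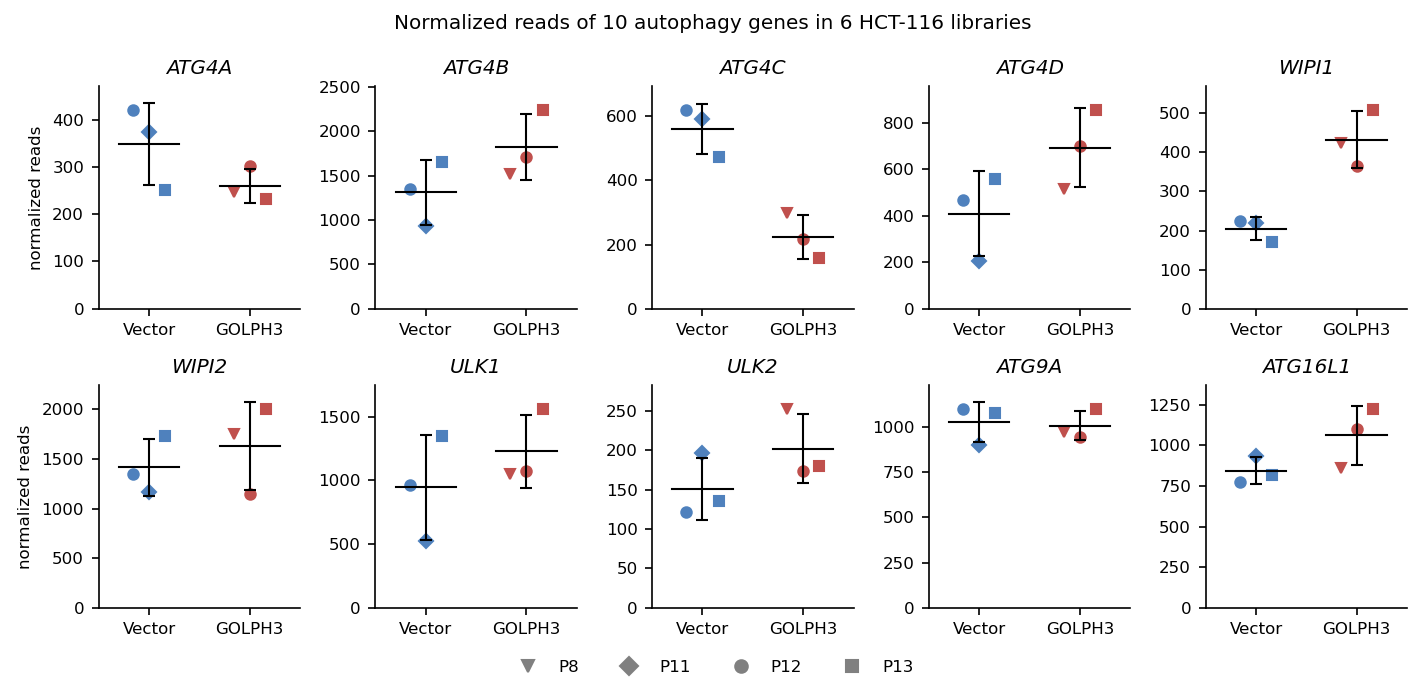
Normalized reads (vertical axes, linear and starting at 0) of the 10 genes in 3 Vector (blue) and 3 GOLPH3 (red) libraries, with marker shape giving the P number, and the line and bar giving mean and SD. The groups are apart for ATG4C, from 159 to 297 against 472 to 620, and for WIPI1, from 364 to 509 against 170 to 225, and overlap for the other 8 genes.

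The groups did not overlap for 2 of the 10 genes, ATG4C and WIPI1, where 22.0% of the 26536 genes tested did not overlap (12.8% lower and 9.2% higher in GOLPH3 libraries). One of the 10, ATG4C, passed an adjusted p of 0.05 in the limma fit, against 5.07% of all genes tested (4.12% lower and 0.953% higher in GOLPH3 libraries). The median log2 fold change of the 10 genes was 0.37, with 7 above 0 and 3 below, and that of all genes was 0.02, with 50.9% above 0. With GC-centred values the median of the 10 was 0.00 and WIPI1 was the single call, against 6.07% of all genes (1.25% higher).

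The stretches upstream of the RefSeq starts of ATG4C and WIPI1, the pair of genes whose groups were apart, are shown because they differ in composition. Each line gives 230 bases (GRCh38.p14), ending 21 bases before the start, written 5′ to 3′ on the strand of the gene: chr1:62783882-62784111, plus strand, for ATG4C and chr17:68457517-68457746, minus strand, for WIPI1. Capitals mark the GC box letters GGGCGG on either strand.
ATG4C: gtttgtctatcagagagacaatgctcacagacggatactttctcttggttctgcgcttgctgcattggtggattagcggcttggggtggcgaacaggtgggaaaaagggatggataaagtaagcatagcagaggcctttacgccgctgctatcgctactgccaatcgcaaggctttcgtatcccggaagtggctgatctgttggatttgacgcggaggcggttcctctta
WIPI1: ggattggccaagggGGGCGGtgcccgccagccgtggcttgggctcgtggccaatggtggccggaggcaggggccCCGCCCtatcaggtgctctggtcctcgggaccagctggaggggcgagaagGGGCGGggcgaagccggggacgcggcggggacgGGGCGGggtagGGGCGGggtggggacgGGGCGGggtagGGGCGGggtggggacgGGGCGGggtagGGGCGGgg
The WIPI1 stretch held 9 GC boxes and the ATG4C stretch 0. Over the full window of 300 bases (250 before the start and 50 after), GC content was 79.7% with 34 CpG dinucleotides for WIPI1 and 55.0% with 21 for ATG4C, and the median of 35116 RefSeq promoters was 58.7% with 14. The GC box letters, added to the search after the sequences were seen, occurred in 44.95% of those promoters. Of the 10 genes, 9 had a window, and none of these held CACGTG (E-box, 7.26% of all promoters), GTAAACA (FOXO motif, 3.42%) or TGATGNAA (an ATF4 motif, 3.62%) on either strand. Over the full window of 300 bases, WIPI1 held 10 GC boxes and ATG4C 0. On that window GC boxes were also found for ULK1 (5), ATG16L1 (2), ATG9A (2), WIPI2 (2, at one of its starts) and ATG4B (1), and not for ATG4A or ULK2.

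ATG4C, a family member that is itself activated by proteolytic cleavage, was lower in the libraries labelled GOLPH3. It had 297, 216 and 159 normalized reads in GOLPH3 libraries 1 to 3 and 620, 593 and 472 in Vector libraries 1 to 3. Every GOLPH3 library lay below every Vector library, and the GOLPH3 mean (224 ± 69.5, SD, n = 3) was 39.9% of the Vector mean (561 ± 78.6, n = 3). The log2 fold change was -1.36 (SE 0.33, 95% CI -2.08 to -0.63, limma adjusted p = 0.0347), and the exact two-sided permutation test over samples gave p = 0.1, the smallest that 3 against 3 allows. Within the shared P numbers the difference was -1.52 at P12 and -1.56 at P13 on the log2 scale, 1 library against 1. Since the RNA is bulk, fewer cells with the transcript and less transcript per cell cannot be told apart.

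The limma call for ATG4C was close to its threshold. It was kept without GOLPH3 library 1 (limma adjusted p = 0.0201) and lost without GOLPH3 library 2 (0.0864), GOLPH3 library 3 (0.165), Vector library 1 (0.196), Vector library 2 (0.0846) or Vector library 3 (0.0778), while the log2 fold change stayed between -1.58 and -1.13. On recovered reads, edgeR gave an adjusted p of 0.0403 and DESeq2 0.00608. ATG4C was called in 9 of 17 alternatives, among them a fit that blocks on P number, with 1 residual degree of freedom. The transcript is GC-poor (34.8%). With GC-centred values the groups still did not overlap, and the log2 fold change was -0.85 (SE 0.24, limma adjusted p = 0.0608). The share of all genes without overlap was not computed for GC-centred values. Its 3 most similar genes by Pearson's r of log2 values over the 6 libraries, among 11172 genes with a mean of at least 100 normalized reads, were PIGK (0.998), RNF170 (0.9974) and NUCKS1 (0.9969), which have 34.9%, 42.0% and 39.0% GC, and 258 genes had r of at least 0.95. The gene spans chr1:62784135-62865513 (GRCh38, plus strand).

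ATG4B, the family member with the broadest activity on ATG8 proteins, had 1520, 1708 and 2242 normalized reads in GOLPH3 libraries 1 to 3 and 1348, 932 and 1653 in Vector libraries 1 to 3. The ranges overlapped, with GOLPH3 library 3 the highest and Vector library 2 the lowest. The log2 fold change of 0.49 (SE 0.31, 95% CI -0.17 to 1.16, limma adjusted p = 0.451) did not pass the test. ATG4D followed the same order of libraries over a wider range. It had 517, 703 and 857 normalized reads in the GOLPH3 libraries and 470, 204 and 557 in the Vector libraries, a 4.21-fold span from lowest to highest, and its log2 fold change was 0.85 (SE 0.40, 95% CI -0.02 to 1.71, limma adjusted p = 0.297). Within P numbers ATG4D differed by 0.58 at P12 and 0.62 at P13 on the log2 scale, and it was called in a fit that blocks on P number (limma adjusted p = 0.028), which has 1 residual degree of freedom and called 22.9% of all genes. ATG4A, which prefers the GABARAP branch of the ATG8 family, pointed the other way, with 248, 302 and 232 normalized reads in the GOLPH3 and 421, 375 and 252 in the Vector libraries (log2 fold change -0.40, SE 0.33, 95% CI -1.11 to 0.31, limma adjusted p = 0.581). Exact permutation tests over samples gave p = 0.2 for each of ATG4A, ATG4B and ATG4D.

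Per kilobase, the 4 proteases together stood at 636, 739 and 844 normalized reads in GOLPH3 libraries 1 to 3 and at 753, 548 and 731 in Vector libraries 1 to 3, ranges that overlap. Their make-up was not the same. ATG4C made up 15.0%, 9.41% and 6.06% of this sum in the GOLPH3 libraries and 26.5%, 34.7% and 20.7% in the Vector libraries, means of 10.2% ± 4.53 and 27.3% ± 7.04 (SD, n = 3). ATG4D made up 35.7%, 41.8% and 44.6% in the GOLPH3 libraries against 27.4%, 16.3% and 33.4%, and ATG4B 36.0%, 34.8% and 40.0% against 27.0%, 25.6% and 34.0%, in both cases with all GOLPH3 shares above all Vector shares. The ATG4A share overlapped between the groups. Shares of one sum are tied to each other, so a lower share of one gene raises the others. The shares were not GC-centred, and the transcripts have 34.8% (ATG4C), 60.9% (ATG4B) and 64.8% (ATG4D) GC. The GC-centred log2 fold changes of ATG4B and ATG4D were 0.02 and 0.13. The part of base composition in the shares was not tested.

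**Figure D2:**
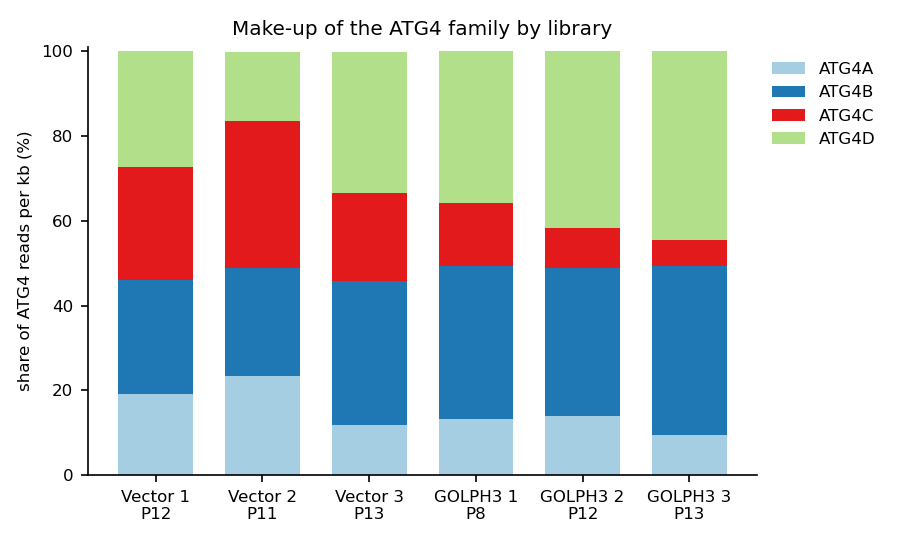
Share of each ATG4 gene in the summed ATG4 reads per kilobase (vertical axis, percent, stacked from 0) in the 3 Vector and 3 GOLPH3 libraries. The red ATG4C segment is 20.7% to 34.7% in the Vector libraries and 6.06% to 15.0% in the GOLPH3 libraries.

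WIPI1, a reader of phosphatidylinositol 3-phosphate on the forming membrane, was higher in the libraries labelled GOLPH3 by its values, and its call turned on the method. It had 423, 364 and 509 normalized reads in GOLPH3 libraries 1 to 3 and 225, 219 and 170 in Vector libraries 1 to 3. All 3 GOLPH3 values lay above all 3 Vector values, and the GOLPH3 mean (432 ± 72.8, SD, n = 3) was 211% of the Vector mean (205 ± 30.4, n = 3). The log2 fold change of 1.07 (SE 0.31, 95% CI 0.39 to 1.75) had a limma adjusted p of 0.0778 on the deposited scale and 0.0185 with GC-centred values (log2 fold change 1.11), while edgeR gave 0.0651 and DESeq2 0.0275. WIPI1 was not called with any 1 library left out (limma adjusted p from 0.124 to 0.306, log2 fold change from 0.94 to 1.19). It was called in 3 of 17 alternatives, among them the fit that blocks on P number. The exact permutation p was 0.1. Within P numbers the difference was 0.69 at P12 and 1.58 at P13 on the log2 scale. The transcript has 49.4% GC, between the quartiles of the composition measure.

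WIPI1 lies at chr17:68420948-68457513 (GRCh38, minus strand) and shares 828 exon bases, 24.3% of its exon length, with ARSG on the opposite strand, and 127 bases with AC007780.1. Whether counting used strand is not given in the sources used here, so reads from these shared bases cannot be assigned to one gene with certainty. ARSG, which encodes an arylsulfatase, had 167, 203 and 160 normalized reads in the GOLPH3 libraries and 136, 111 and 131 in the Vector libraries, also without overlap, at 140% of the Vector mean.

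WIPI2, which recruits ATG16L1, had 1749, 1143 and 2000 normalized reads in GOLPH3 libraries 1 to 3 and 1346, 1168 and 1726 in Vector libraries 1 to 3. The lowest value of all 6 belonged to GOLPH3 library 2 and the highest to GOLPH3 library 3, so the GOLPH3 group enclosed the Vector group. The log2 fold change was 0.19 (SE 0.31, 95% CI -0.48 to 0.85, limma adjusted p = 0.804). The ratio of WIPI1 to WIPI2 per kilobase was 0.638, 0.842 and 0.672 in the GOLPH3 libraries and 0.442, 0.495 and 0.260 in the Vector libraries, again without overlap.

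**Figure D3:**
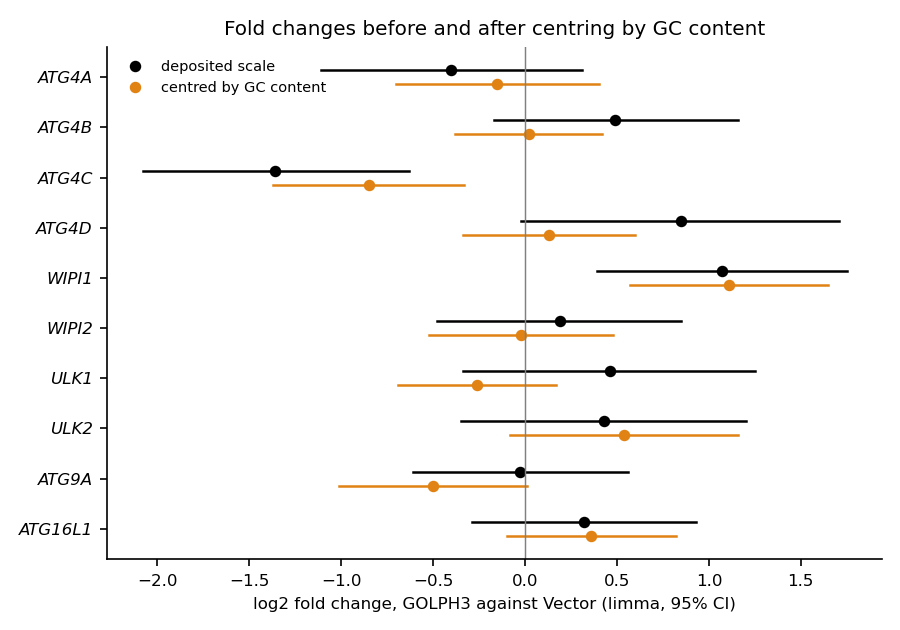
Log2 fold change of each gene, GOLPH3 against Vector (horizontal axis), with its 95% confidence interval from limma over 3 and 3 libraries, on the deposited scale (black) and GC-centred (orange). The intervals of ATG4C (from -2.08 to -0.63) and WIPI1 (from 0.39 to 1.75) leave out 0 on the deposited scale, and ATG4B, ATG4D, WIPI2, ULK1 and ATG9A move left when GC-centred.

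ULK1, the main kinase of autophagy initiation, had 1054, 1072 and 1560 normalized reads in GOLPH3 libraries 1 to 3 and 961, 525 and 1349 in Vector libraries 1 to 3 (log2 fold change 0.46, SE 0.36, 95% CI -0.34 to 1.25, limma adjusted p = 0.568). The groups overlapped through Vector library 3, and Vector library 2 stood lowest. With GC-centred values the sign turned, to -0.26 (limma adjusted p = 0.565). Its paralogue ULK2 had 252, 174 and 180 normalized reads in the GOLPH3 and 122, 196 and 135 in the Vector libraries, overlapping through Vector library 2 (log2 fold change 0.43, SE 0.36, 95% CI -0.35 to 1.2, limma adjusted p = 0.587). Per kilobase, ULK2 was 0.0894 to 0.185 of ULK1 in the GOLPH3 libraries and 0.0772 to 0.289 in the Vector libraries.

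ATG9A, the scramblase of the seeding vesicles, had the narrowest span of the 10 genes on the deposited scale. It had 975, 946 and 1097 normalized reads in GOLPH3 libraries 1 to 3 and 1099, 898 and 1080 in Vector libraries 1 to 3, a 1.22-fold span over all 6. The log2 fold change was -0.03 (SE 0.27, 95% CI -0.61 to 0.56, limma adjusted p = 0.977) on the deposited scale. The transcript is GC-rich (59.8%) and its level did not follow the composition measure. Its GC-centred log2 levels ran from 9.52 to 10.50, wider than those of ATG4B and ATG4D, and the GC-centred fold change was -0.50 on the log2 scale (limma adjusted p = 0.292). ATG16L1 had 861, 1100 and 1223 normalized reads in the GOLPH3 and 773, 936 and 820 in the Vector libraries, with GOLPH3 library 1 inside the Vector range (log2 fold change 0.32, SE 0.28, 95% CI -0.29 to 0.93, limma adjusted p = 0.605). Its differences within P numbers were 0.51 at P12 and 0.58 at P13, and with the P block it was called (log2 fold change 0.54, limma adjusted p = 0.0331). Across P12 and P13, the differences had the same sign for ATG4A (-0.48 and -0.12), ATG4B (0.34 and 0.44), ULK1 (0.16 and 0.21) and ULK2 (0.50 and 0.42), and opposite signs for WIPI2 and ATG9A. Exact permutation tests over samples gave p from 0.2 to 0.9 for WIPI2, ULK1, ULK2, ATG9A and ATG16L1.

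Several of these levels ran with the base composition of the libraries. ATG4B (60.9% GC) and ATG4D (64.8%) put the 6 libraries in exactly the order of the composition measure, from Vector library 2 at the bottom to GOLPH3 library 3 at the top, as 2.1% of 11267 genes with a mean of at least 100 normalized reads did. After GC-centring, the log2 levels of ATG4B lay between 10.46 and 10.64 in all 6 libraries and those of ATG4D between 8.78 and 9.15, and their log2 fold changes were 0.02 (limma adjusted p = 0.969) and 0.13 (0.814). ATG4A, with 42.5% GC, went from -0.40 to -0.15 (limma adjusted p = 0.823). WIPI1, ULK2 (46.4% GC) and ATG16L1 (48.5%) kept their log2 fold changes, at 1.11, 0.54 and 0.36. The GC-centred ULK2 groups did not overlap (limma adjusted p = 0.36), and the share of all genes apart on that scale was not computed.

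**Figure D4:**
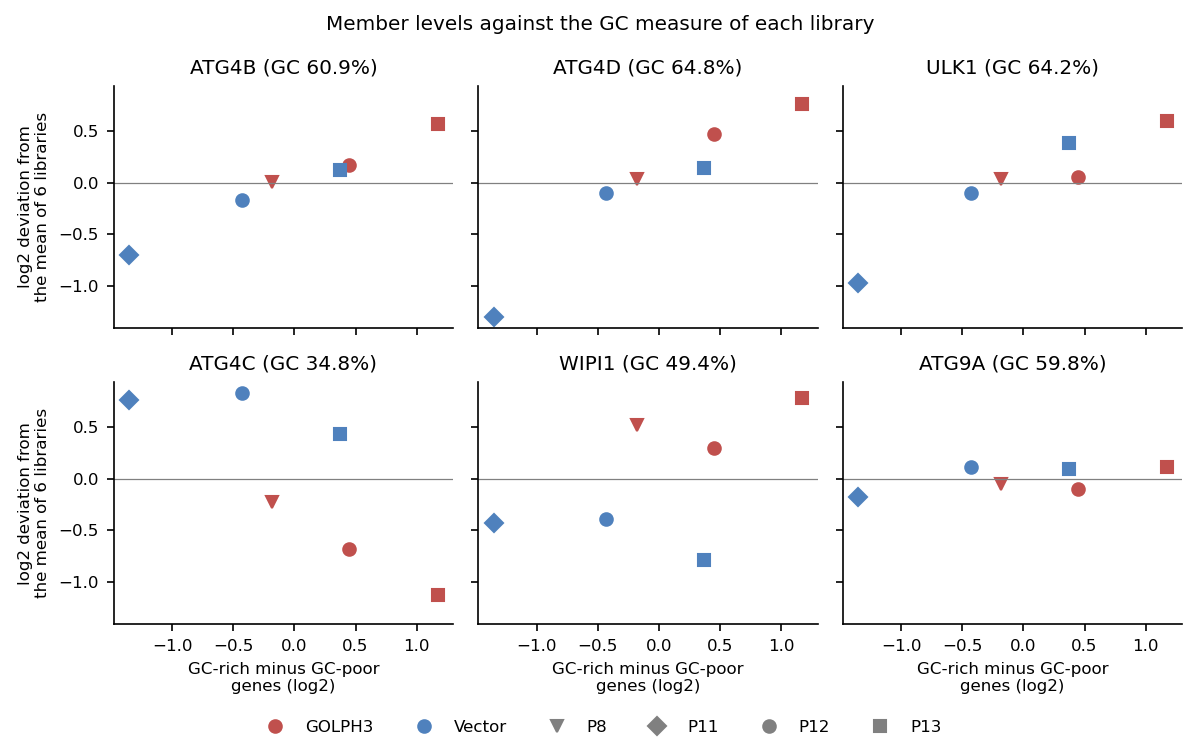
Log2 deviation of 6 of the genes from their own mean over the libraries (vertical axis) against the composition measure of each library, GC-rich minus GC-poor transcripts in log2 (horizontal axis), for GOLPH3 (red) and Vector (blue) libraries with marker shape giving the P number. ATG4B and ATG4D climb with the measure, from Vector library 2 at -1.35 to GOLPH3 library 3 at 1.17, ATG4C is lower in every GOLPH3 library, WIPI1 splits by group and ATG9A stays flat.

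ATG4D, at chr19:10543895-10553418 (GRCh38, plus strand), shares 341 exon bases (15.0% of its exon length) with KRI1 on the opposite strand. KRI1, a ribosome biogenesis gene, had 902, 1163 and 1313 normalized reads in the GOLPH3 and 1019, 908 and 1552 in the Vector libraries, which overlap. ATG4B, at chr2:241637213-241673857, shares 237 exon bases (3.6%) with THAP4 on the opposite strand. ATG9A, at chr2:219219380-219229717, shares 1833 exon bases (38.8%) with AC068946.2 on the same strand, a gene with a mean of 2.4 normalized reads. Strand cannot separate this pair, and how reads on shared bases were counted is not given in the sources used here. The level of ATG9A per kilobase was computed over its full exon length, so it may be affected. The other genes lie at chrX:108091668-108154671 (ATG4A), chr7:5190188-5233826 (WIPI2), chr12:131894651-131923167 (ULK1), chr17:19770829-19867936 (ULK2) and chr2:233210051-233295674 (ATG16L1).

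Both P12 libraries, one in each group, were set against the other 4 with the group held in the fit, a contrast chosen with earlier results of these data known. None of the 10 genes passed an adjusted p of 0.05 in limma and 0 did at an unadjusted p under 0.05, where 0.0% and 7.24% of all genes did (edgeR called 0 of the 10, and DESeq2 0 against 0.539% of the genes it tested). Log2 differences ran from -0.39 for WIPI2 (SE 0.31, 95% CI -1.07 to 0.28) to 0.39 for ATG4A (SE 0.32, 95% CI -0.33 to 1.11), with 5 above 0 and 5 below. MAP1LC3B, which encodes the ATG8 protein LC3B, had 12115 and 11020 normalized reads in the P12 libraries of the GOLPH3 and Vector groups and 2362 to 3772 in the other 4, without overlap (log2 difference 2.07, SE 0.30, limma adjusted p = 0.2, and 0.00201 with GC-centred values).

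ATG12, the ubiquitin-like partner of ATG5, had 4483 and 4703 normalized reads at P12 and 1334 to 2411 elsewhere (log2 difference 1.29, SE 0.31, limma adjusted p = 0.344, GC-centred 0.0161). SESN2, a stress-induced inhibitor of mTORC1, had 8005 and 5006 against 627 to 3072 (log2 difference 2.23, limma adjusted p = 0.450, GC-centred 0.0146), and WDR45, a relative of the WIPI proteins, 786 and 712 against 285 to 533 (0.97, limma adjusted p = 0.570, GC-centred 0.0408). These 4 were the GC-centred calls among 58 other autophagy genes tested, against 1.7% of all genes, and limma called none of the 58 on the deposited scale (8 at an unadjusted p under 0.05), while DESeq2 called 2 (ATG12 and MAP1LC3B) and limma without GOLPH3 library 3 called 1 (MAP1LC3B). Of 9 target genes of ATF4, the stress-response transcription factor, all 9 had positive log2 differences at P12 (median 1.54). Of all genes, 51.5% did (median 0.02). The smallest p was that of the cystine transporter gene SLC7A11 (1.64, SE 0.32, limma adjusted p = 0.216). Limma called 0 of the 9 on the deposited scale and 5 when GC-centred (TRIB3, DDIT3, ATF3, PSAT1 and SLC7A11), against 1.7% of all genes. The pattern of MAP1LC3B was known from earlier results, and the ATG4, WIPI, ULK, ATG9A and ATG16L1 values are given beside it because ATG4 acts on its protein product.

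Of 59 other genes of the pathway, 58 were tested between GOLPH3 and Vector, and limma called 1, beside 5.07% of all genes. PRKAA2, which encodes a catalytic subunit of AMPK, the kinase that activates ULK1, had 442, 377 and 242 normalized reads in GOLPH3 libraries 1 to 3 and 1096, 1423 and 786 in Vector libraries 1 to 3. It was lower in each GOLPH3 library than in any Vector library (log2 fold change -1.64, SE 0.34, limma adjusted p = 0.0137, GC-centred -1.13 with adjusted p = 0.00412). No pathway gene was called without GOLPH3 library 3 or Vector library 1, and 3 were without GOLPH3 library 1 (ATG101 higher, PRKAA2 and SESN3 lower). The median log2 fold change of the 58 was 0.07, with 34 above 0, and groups did not overlap for 11 of them (5 higher and 6 lower), beside 22.0% of all genes (9.2% and 12.8%). Their 9 unadjusted p-values under 0.05 compare with 17.6% of all genes.

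By role, limma on the deposited scale called 0 of 4 genes for ULK complex partners and ULK3. It called 0 of 8 class III PI3K complex genes and 0 of 7 genes of lipid transfer and other PROPPINs. For conjugation genes it was 0 of 7 and for ATG8 genes 0 of 6. The last lists gave 1 of 19 genes of upstream kinases and their regulators and 0 of 7 transcription factors. The smallest p in each list belonged to ATG101, a ULK complex subunit (log2 fold change 1.35, limma adjusted p = 0.243), RUBCN, a negative regulator of the PI3K complex (0.80, 0.159), ATG9B, the paralogue of ATG9A (1.41, 0.102), ATG16L2, the paralogue of ATG16L1 (0.60, 0.359), GABARAPL2 (-0.24, 0.699), PRKAA2, and FOXO1, a transcription factor of autophagy genes (-0.93, 0.159). ATG9B had 68.7, 105 and 158 normalized reads in the GOLPH3 and 44.3, 34.0 and 38.6 in the Vector libraries, which did not overlap, and its GC-centred log2 fold change was 0.85 (limma adjusted p = 0.263). RUBCN had 471, 538 and 485 against 277, 302 and 280, also apart. Among ATF4 targets, VLDLR, a lipoprotein receptor gene, was called lower, with 6.44, 7.42 and 3.20 against 116, 38.3 and 118 normalized reads (log2 fold change -3.68, SE 0.60, limma adjusted p = 0.0025).

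In the P12 contrast the smallest p of the other lists belonged to ATG101 (log2 difference 0.64, limma adjusted p = 0.910), PIK3R4, the regulatory subunit of the PI3K complex (-0.66, 0.735), and TFE3, a transcription factor of lysosomal genes (0.72, 0.785).

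**Figure D5:**
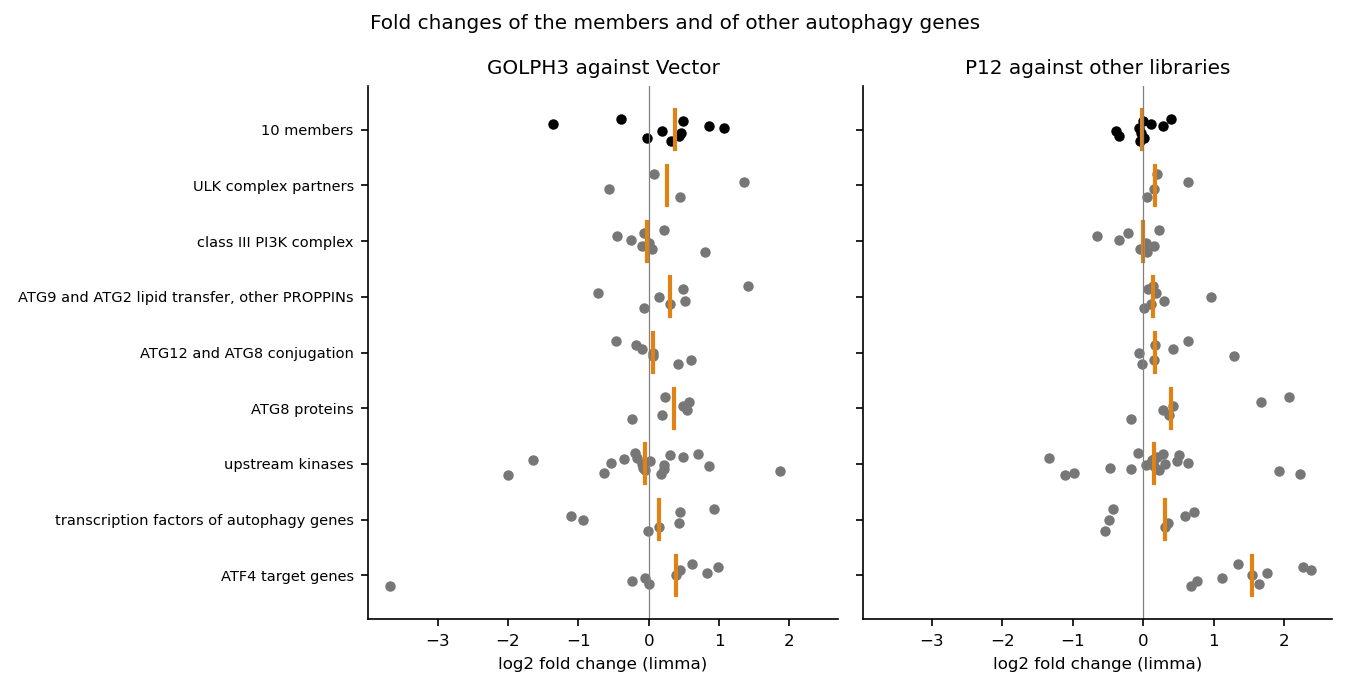
Log2 fold changes from limma (horizontal axes, same range) of the 10 genes (black) and of other autophagy genes grouped by role (grey), with the median of each row as an orange bar, for GOLPH3 against Vector (left) and P12 against the other 4 libraries (right). At P12 the 10 genes lie between -0.39 and 0.39, while MAP1LC3B stands at 2.07 and the ATF4 targets have a median of 1.54.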

How the data were processed

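RNA sequencing of 6 HCT-116 libraries (3 GOLPH3, 3 Vector) was used, grouped by their labels. The submitters' processing notes name fastp 0.20.0, HISAT2 2.1.0, featureCounts 1.6.1, Cufflinks, DESeq2 and GRCh38; the annotation release and the strand setting are not given in the sources used here. The deposited values were a signal in which the authors had divided read counts by a size factor per library, and 100.0% of values came out as whole reads (tolerance 0.01 read). Second rows of an identifier (44 of 60590 rows) were added to its first row, and the first symbol was kept. The main test was limma 3.58.1 (R 4.3.3) with a trend on log2(value + 1) for genes reaching 1 in 3 or more libraries, with Benjamini-Hochberg adjustment over 26536 genes; fold changes are on that scale, which understates those of low genes. edgeR 4.0.16 and DESeq2 1.42.0 on recovered reads were alternatives, as were filters, scalings, blocks, left-out libraries and GC-centring. Permutation tests were exact and two-sided. Exon lengths, positions and overlaps came from GENCODE 29 (96.4% of identifiers matched), and promoters from RefSeq (GRCh38.p14). Replicates differed by more than sampling noise (chi-square per degree of freedom at least 65.34). Depth was 15708846 to 21900764 reads. The script that fits was tested on simulated data. The genes, lists and the P12 contrast were chosen with earlier results of these data known. Named genes were the 10 members, genes of the pathway and ATF4 lists with adjusted p under 0.05 in either contrast, the smallest p of each of those lists, and the 3 genes most similar to a called member; ARSG and KRI1 were added because they overlap members, SESN3 as part of a small count, and marker genes to check the labels, all after their values were seen.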

Additional observations from a re-analysis of the deposited data

Results flagged for a closer look

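WIPI2 and ATG9A differed in sign between the libraries that share a P number. WIPI2 was lower in the GOLPH3 than in the Vector library at P12 (log2 difference -0.24) and higher at P13 (0.21). ATG9A was lower at P12 (-0.22) and level at P13 (0.02). Each value is 1 library against 1, and the difference between P numbers was not tested.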

How the results depend on the processing

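Between GOLPH3 and Vector, 1 of the 10 genes was called on the deposited scale. None was with a value of 1 required in all libraries or with quantile normalization. DESeq2 called 2 (ATG4C and WIPI1), and 0 to 1 were called when one library was left out. With the P number as a block, 4 were called (ATG4C, ATG4D, WIPI1 and ATG16L1). That fit has 1 residual degree of freedom and called 22.9% of all genes. The pathway count, 1 of 58, became 2 of 59 with no filter, 3 of 59 by DESeq2 and 16 of 58 with the P block. It was 2 of 58 with P12 as a covariate and 0 to 3 with one library left out. For all genes, 1346 of 26536 (5.07%) became 405 of 18996 with the strict filter and 1991 of 36340 by DESeq2. No filter gave 1424 of 36340, P12 as a covariate 1359 of 26536 and the P block 6082 of 26536 (22.9%). With one library left out, the count ran from 459 of 24813 to 1528 of 25192. In the P12 contrast, 0 of 58 pathway genes became 2 of 59 by DESeq2, 4 of 58 when GC-centred and 0 to 1 with one library left out. For all genes, 0 of 26536 became 196 of 36340 (0.539%), 450 of 26536 (1.7%) and 0 to 23. The cause was not tested.

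With replicate numbers as a replicate block, 1 of the 10 genes was called (ATG4C, limma adjusted p = 0.0419), and the call of no member changed. That fit called 1 of 58 pathway genes and 1081 of 26536 genes. Same-numbered libraries had deviations from group means correlated at -0.44, -0.26 and 0.52 over 14877 genes, so these numbers do not pair the samples. Libraries with the same P number had 0.54 (P12) and 0.52 (P13). GOLPH3 library 1 (P8) and Vector library 2 (P11), which share neither number, had 0.58. Deviations within a group cancel out, so this last value is tied to the other correlations and is no separate comparison.

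Directions reversed between GOLPH3 and Vector for WIPI2 (-0.02 when GC-centred, -0.01 with the P block), ULK1 (-0.26 when GC-centred) and ATG9A (-0.12 to 0.03 with one library left out). In the P12 contrast, ATG9A was -0.01 with quantile normalization and -0.02 when GC-centred, and with one library left out the log2 difference ran from -0.07 to 0.32 for ATG4C, -0.06 to 0.56 for ATG4D, -0.35 to 0.22 for WIPI1, -0.36 to 0.23 for ULK1, -0.13 to 0.16 for ATG9A and -0.18 to 0.10 for ATG16L1. Of 170 member values between the groups, 151 kept direction and side of the threshold, as did 135 of 150 in the P12 contrast. The recovered counts of the 10 genes were at least 119 reads in every library.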
